A study of Mus musculus with 8 samples.

Results

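The genes described here are 36 genes of the cell cycle and of mitosis, measured in the liver of ovariectomized (OVX) mice with and without white button mushroom (WBM) in a high fat diet (HFD). They were chosen by name, as genes that act in G1, S phase and mitosis, without the helicase subunits of the MCM family. Of 37 genes listed, 36 had a probe set that names that gene alone, out of 19938 genes measured in this way. Ccnb1 was not analysed here. A gene with several probe sets is represented by the brightest of them, by its mean on the 8 arrays. The mice fed mushroom were 4 female C57B1/6J mice, ovariectomized at 7 weeks of age and then fed HFD+WBM for 3 months. They were compared with 4 OVX mice of the same sex, strain and age at surgery fed HFD alone. Every mouse on these arrays was therefore both ovariectomized and on a high fat diet. Without ovaries, the estrogen left to these mice comes from other tissues. Liver RNA of each mouse was hybridized to its own Affymetrix Mouse Gene 1.0 ST array, and all values below are the deposited log2 probe set values.

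Cells enter division through cyclin D and cyclin E, which drive CDK kinases to free the E2F transcription factors. E2F then switches on the genes of DNA replication and of deoxynucleotide supply. Later in the cycle cyclin A and cyclin B bind CDK1, and the mitotic kinases, the spindle checkpoint and the kinesins carry the chromosomes apart. In G2 and mitosis many genes are switched on through a promoter element called the cell cycle genes homology region (CHR), often near CCAAT boxes bound by NF-Y. Most hepatocytes of the adult liver rest outside the cycle, many of them polyploid, and can re-enter it after injury or loss of tissue. Macrophages and other non-parenchymal cells of the liver can also divide.

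RefSeq promoter windows (GRCm38.p6, 250 bases before the transcription start and 50 after it) were found for 27 of the 36 genes. Those without a window were Ccnd1, Ccne2, Pole, Gins1, Gins2, Ccna2, Aurkb, Tpx2 and Kif20a. The bases printed are the 120 bases before the start, read 5′ to 3′ on the strand of the gene. They are shown for the 4 genes with a window that were lower with HFD+WBM (Rrm1, Rrm2, Prim1 and Top2a) and for 3 genes of G2 and mitosis that did not pass, picked because they hold both motifs, so that the layouts can be compared. Capitals mark CHR (TTTGAA) and CCAAT motifs on either strand.
Rrm1 (chr7:102441575-102441694, plus strand): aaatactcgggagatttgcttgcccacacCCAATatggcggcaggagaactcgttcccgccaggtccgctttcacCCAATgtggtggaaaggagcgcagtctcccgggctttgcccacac
Rrm2 (chr12:24708134-24708253, plus strand): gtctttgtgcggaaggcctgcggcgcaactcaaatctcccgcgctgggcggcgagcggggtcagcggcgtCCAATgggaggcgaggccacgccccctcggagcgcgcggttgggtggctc
Prim1 (chr10:128015095-128015214, plus strand): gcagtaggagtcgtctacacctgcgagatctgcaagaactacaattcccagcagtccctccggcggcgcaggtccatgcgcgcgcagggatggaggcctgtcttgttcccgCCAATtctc
Top2a (chr11:99024190-99024309, minus strand): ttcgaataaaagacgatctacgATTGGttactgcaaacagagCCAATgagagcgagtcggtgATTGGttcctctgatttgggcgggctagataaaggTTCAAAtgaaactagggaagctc
Cdk1 (chr10:69352913-69353032, minus strand): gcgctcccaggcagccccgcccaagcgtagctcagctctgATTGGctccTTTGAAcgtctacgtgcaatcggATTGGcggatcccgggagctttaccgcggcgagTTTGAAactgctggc
Cdc20 (chr4:118437344-118437463, minus strand): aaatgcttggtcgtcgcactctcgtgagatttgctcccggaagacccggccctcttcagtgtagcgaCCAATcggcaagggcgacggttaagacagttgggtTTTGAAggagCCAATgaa
Kif11 (chr19:37376262-37376381, plus strand): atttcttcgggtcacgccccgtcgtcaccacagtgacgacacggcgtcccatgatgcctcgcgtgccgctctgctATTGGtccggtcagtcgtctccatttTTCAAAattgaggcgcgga

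The 3 genes of S phase, Rrm1, Rrm2 and Prim1, hold CCAAT boxes and no CHR in the bases shown. In Top2a, Cdk1, Cdc20 and Kif11 a CHR lies close to the start with a CCAAT box before it. Over all 27 genes with a window, a CHR was found in 11 of 15 genes of G2 and mitosis and in 0 of 12 genes of G1 and S phase, against 20.2% of all 27025 genes with a window. Those 11 genes were Ccnb2, Cdk1, Plk1, Aurka, Bub1b, Ttk, Cdc20, Mki67, Top2a, Cenpa and Kif11, and all 11 also held a CCAAT box, a combination found in 8.97% of all genes. Counted from start to start, the CHR farthest downstream in each gene followed the CCAAT box before it by 25 to 153 bases, with a median of 35. In Ccnb2, Plk1, Aurka, Bub1b, Ttk and Cenpa this CHR lay after the transcription start, at positions 5 to 41. CCAAT was found in 19 of the 27 members and 41.1% of all genes. An E2F motif, searched as TTTCCCGC or TTTCGCGC or TTTGCCGC or TTTGGCGC on both strands, was found in 5 members (Cdc6, Cdt1, Pola1, Uhrf1 and Cdk1) and in 2.61% of all genes. None of these motifs contains another. A match gives the letters only and does not show that a factor was bound.

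**Figure D1:**
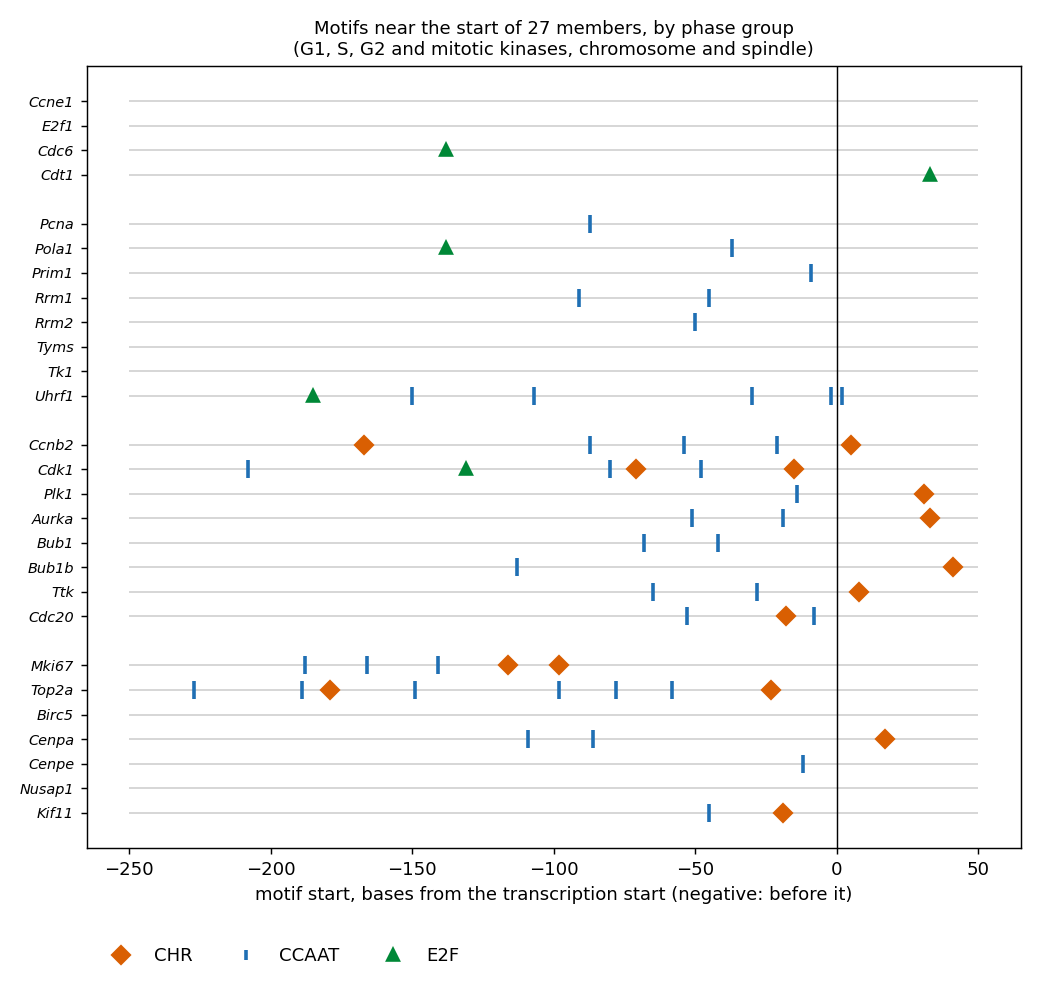
Start of each CHR (orange diamond), CCAAT (blue bar) and E2F motif (green triangle) in the promoter windows of 27 members, in bases from the transcription start, with the members grouped by phase. Uhrf1 has 2 windows, drawn on 1 line. CHR motifs are seen in the 2 bottom groups (G2 and mitosis, 11 of 15 genes) and in none of the 12 genes of G1 and S phase.

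At p under 0.05 before adjustment (limma), 6 of the 36 members were lower in HFD+WBM livers than in HFD livers and none was higher. The other 30 stayed short of this threshold. The 6 were Ccnd1, Rrm1, Rrm2, Prim1, Top2a and Tpx2. Over all 19938 genes, 6.9% were lower and 4.85% were higher at this threshold. With a change of at least 2-fold as well, the study's thresholds, Ccnd1 alone passed, against 0.497% of all genes lower and 0.266% higher. The 4 HFD+WBM livers all lay below the 4 HFD livers for 3 members, Ccnd1, Rrm1 and Rrm2, and for 5.02% of all genes. No member had all HFD+WBM livers above all HFD livers, against 3.21% of genes. After Benjamini-Hochberg adjustment over all genes limma called 0 members and 0 of 19938 genes (0%), while 1375 genes were lower and 966 higher before adjustment. The smallest adjusted p of a member was 0.35. Estimates were below 0 for 25 of the 36 members and for 49.3% of all genes, with a median log2 fold change of -0.16 for the members and 0.01 for all genes. In bulk liver RNA, fewer cells of a type and less RNA per cell cannot be told apart.

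Taken over every probe set, the array medians lay between 7.11 and 7.19 for HFD+WBM and between 7.04 and 7.22 for HFD. The array of HFD replicate 3 stood farthest from the mean of the others, with a standard deviation over genes of 0.68, against 0.38 to 0.50 on the other 7. Hepatocyte markers, among them Alb and Apob, had a mean of 13.28 to 13.39 in HFD+WBM livers and 13.24 to 13.37 in HFD livers. Of the 36 members, 28 had a mean below the median gene of the array (7.27). The files used here hold no detection call, so how far a low value lies above background is not known.

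**Figure D2:**
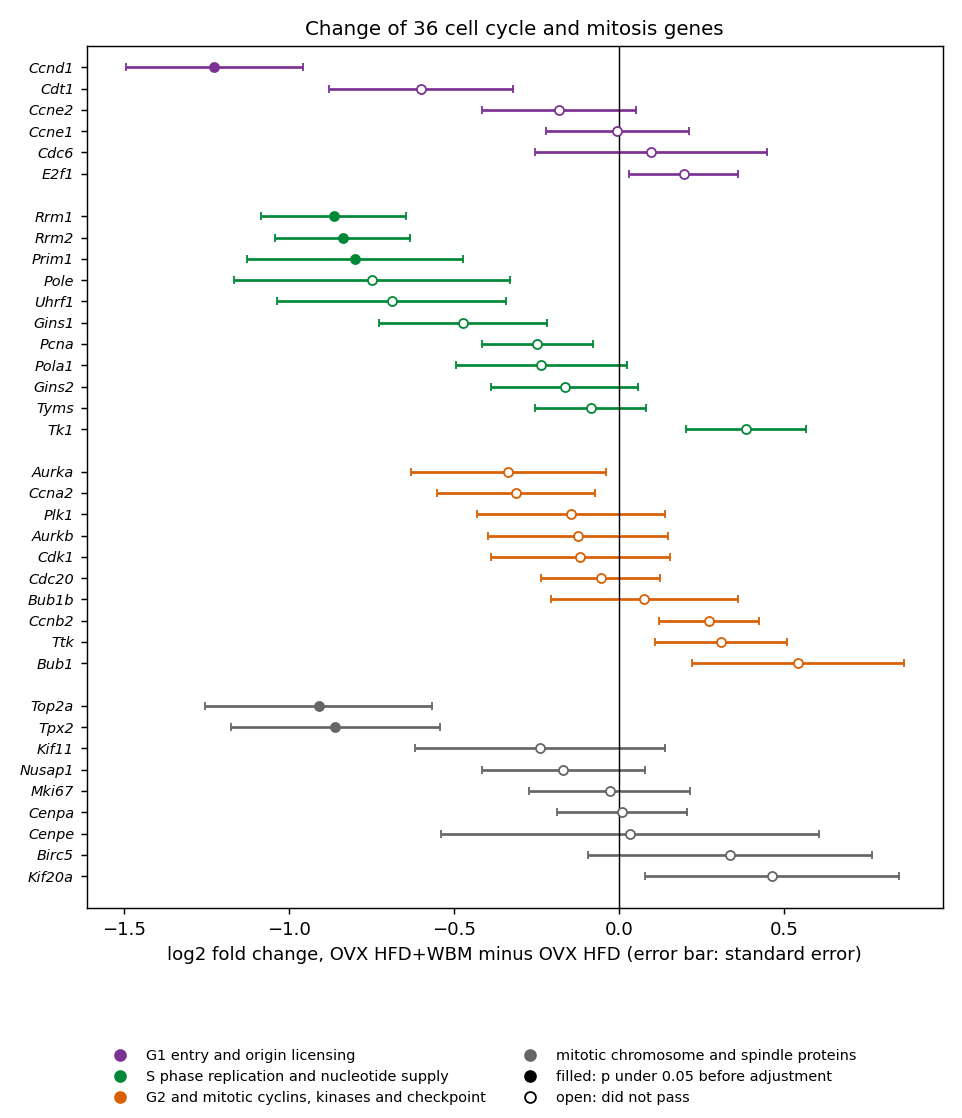
Log2 fold change of each member, OVX HFD+WBM minus OVX HFD (4 mice each), drawn with the standard error of the limma fit, in 4 phase groups. Filled points passed p under 0.05 before adjustment. The filled points are Ccnd1, Rrm1, Rrm2, Prim1, Top2a and Tpx2, all below 0, and 10 of 11 genes of the S phase group lie below 0.

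Ccnd1, which encodes cyclin D1, the cyclin that starts progression through G1, showed the largest fall of the members. Its log2 value was 8.84, 9.34, 8.13 and 9.18 in the 4 HFD+WBM livers (replicates 1 to 4), against 10.22, 9.71, 10.15 and 10.32 in the 4 HFD livers. Every HFD+WBM liver lay below every HFD liver, and HFD+WBM replicate 3 was the lowest of all. The means were 8.87 ± 0.54 with HFD+WBM and 10.10 ± 0.27 with HFD (SD, n = 4 each), which is 2.34-fold lower. The log2 fold change was -1.23 (standard error 0.27), with p = 0.0012 before and 0.35 after adjustment (limma) and an exact permutation p (two-sided here and throughout) of 0.029, the smallest value that 4 mice against 4 allow. Ccnd1 passed p under 0.05 in each of the 19 other settings tried, with log2 fold changes between -1.38 and -0.98.

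The other genes of G1 and of origin licensing did not pass. Ccne1 and Ccne2 encode the E cyclins of the G1/S transition, and their log2 fold changes were -0.01 (standard error 0.22) and -0.18 (standard error 0.23). For Ccne1 the 95% interval of the difference was -0.49 to 0.48. E2f1, a transcription factor of S phase genes, had a change of 0.20 (standard error 0.17), and Cdc6, which loads the replicative helicase at origins, one of 0.10 (standard error 0.35). Cdt1, the partner of Cdc6 in licensing, had one of -0.60 (standard error 0.28) with p = 0.058 before adjustment (limma) and an exact permutation p of 0.057. In Cdt1 the value of HFD replicate 4 was 7.94, against 6.65 to 6.93 in the other 3 HFD livers and 6.19 to 6.67 in the HFD+WBM livers.

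In the S phase group, 10 of 11 estimates were below 0 and the median log2 fold change was -0.47, against 0.01 over all genes. Rrm1 and Rrm2 encode the large and the small subunit of ribonucleotide reductase, the enzyme that makes deoxynucleotides. Rrm1 was 7.36, 7.53, 7.06 and 7.70 in the 4 HFD+WBM livers, against 8.10, 7.87, 8.44 and 8.70 in the 4 HFD livers. Rrm2 was 6.67, 6.46, 5.86 and 6.46 in the 4 HFD+WBM livers, against 7.05, 6.97, 7.42 and 7.37 in the 4 HFD livers. Neither gene overlapped between the diets, and in both the lowest liver was HFD+WBM replicate 3. Rrm1 averaged 7.41 ± 0.28 with HFD+WBM and 8.28 ± 0.37 with HFD (SD, n = 4 each), 1.82-fold lower, with a log2 fold change of -0.87 (standard error 0.22). Rrm2 averaged 6.36 ± 0.35 with HFD+WBM and 7.20 ± 0.22 with HFD (SD, n = 4 each), 1.79-fold lower, with one of -0.84 (standard error 0.20). Limma gave p = 0.0030 for Rrm1 and p = 0.0024 for Rrm2 before adjustment, both 0.37 after it, and the exact permutation test gave 0.029 for either gene. Rrm1 passed in all 19 other settings and Rrm2 in all 18 that tested it.

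Prim1, the catalytic subunit of the primase that lays down replication primers, was lower with overlap between the diets. It was 6.25, 5.25, 5.38 and 6.06 in the 4 HFD+WBM livers, against 6.03, 6.14, 6.66 and 7.31 in the 4 HFD livers. HFD+WBM replicates 1 and 4 lay within the HFD range, and HFD replicate 4 was the highest. The log2 fold change was -0.80 (standard error 0.33), 1.74-fold lower, with p = 0.036 before and 0.40 after adjustment (limma) and an exact permutation p of 0.14. It did not pass without HFD+WBM replicate 2 (-0.64) or 3 (-0.68), or without HFD replicate 3 (-0.76) or 4 (-0.54).

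Pcna, the sliding clamp of the replication fork and a common marker of proliferation, did not pass. It was 9.73, 9.59, 9.44 and 9.63 in the 4 HFD+WBM livers, against 9.67, 9.57, 10.02 and 10.13 in the 4 HFD livers. HFD replicates 3 and 4 were above all HFD+WBM livers, and the other HFD livers were among them. Its log2 fold change was -0.25 (standard error 0.17), and that of its other probe set was -0.29 (standard error 0.16). Among the DNA polymerase genes, Pole (polymerase epsilon) had a change of -0.75 (standard error 0.42) and Pola1 (polymerase alpha) one of -0.24 (standard error 0.26). Gins1 and Gins2, subunits of the GINS complex of the fork helicase, had -0.47 (standard error 0.25) and -0.16 (standard error 0.22). Uhrf1, which carries DNA methylation through replication, had -0.69 (standard error 0.35). None of these passed. For Pole and Uhrf1 HFD replicate 4 was the highest liver, with 8.12 for Pole, against 5.32 to 6.51 in HFD+WBM livers and 6.20 to 6.76 in the other HFD livers.

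The enzymes of thymidylate supply did not pass. For Tyms, which makes thymidylate from deoxyuridylate, the change was -0.09 (standard error 0.17), with a 95% interval of -0.47 to 0.29. Tk1, the thymidine kinase of the salvage route, had the only estimate above 0 in the group, 0.38 (standard error 0.18), with p = 0.063 before adjustment (limma) and an exact permutation p of 0.086. It was 8.98, 8.58, 8.76 and 9.14 in the 4 HFD+WBM livers, against 8.41, 8.39, 8.83 and 8.29 in the 4 HFD livers. The HFD+WBM livers were mostly above the HFD livers, with HFD replicate 3 among them. In its other, dimmer probe set, looked at after the values were seen, Tk1 was 8.07 to 8.57 in HFD+WBM livers and 7.92 to 8.02 in HFD livers, a difference of 0.34 on the log2 scale (standard error 0.15) with p = 0.046 before adjustment (limma) and an exact permutation p of 0.029.

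**Figure D3:**
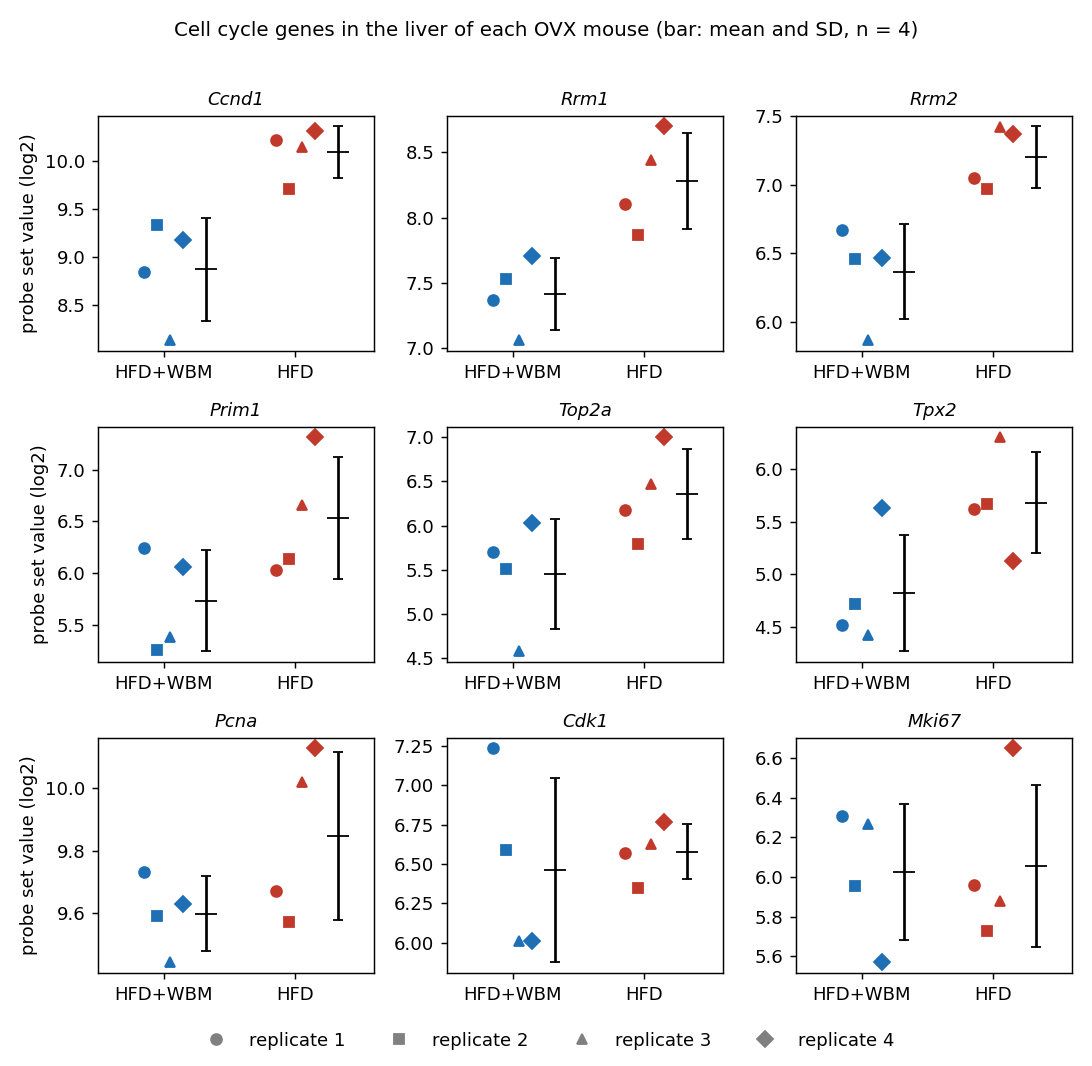
Log2 probe set values of 9 members for every OVX mouse (HFD+WBM in blue, HFD in red), with a marker shape per replicate number, and beside them the mean with the SD of 4 mice. The vertical scales differ between genes. Ccnd1, Rrm1 and Rrm2 do not overlap between the diets, Prim1, Top2a and Tpx2 overlap, and Pcna, Cdk1 and Mki67 did not pass the test.

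None of the 10 measured cyclins, kinases and checkpoint genes of G2 and mitosis passed, and their median log2 fold change was -0.09. Cdk1, the kinase that drives entry into mitosis, was 7.24, 6.59, 6.01 and 6.01 in the 4 HFD+WBM livers, against 6.57, 6.35, 6.63 and 6.77 in the 4 HFD livers. The HFD+WBM livers spread on both sides of the HFD livers, with replicate 1 the highest of all. Its log2 fold change was -0.12 (standard error 0.27), with a 95% interval of -0.73 to 0.49. Ccna2 (cyclin A2) had a change of -0.31 (standard error 0.24) and Ccnb2 (cyclin B2) one of 0.27 (standard error 0.15), and neither passed. Of the mitotic kinases, Plk1 had -0.15 (standard error 0.29), Aurka -0.34 (standard error 0.29) and Aurkb -0.12 (standard error 0.27). The checkpoint kinases Bub1 and Ttk had estimates above 0, 0.54 (standard error 0.32) and 0.31 (standard error 0.20), Bub1b had 0.08 (standard error 0.28), and Cdc20, the activator of the anaphase-promoting complex, had -0.06 (standard error 0.18). Bub1 was dim on every array, with 4.34 to 5.58 in HFD+WBM livers and 3.76 to 4.92 in HFD livers.

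Of 9 genes of the mitotic chromosome and spindle, Top2a and Tpx2 were lower with HFD+WBM and 7 did not pass. Top2a encodes topoisomerase II alpha, which untangles sister chromatids. It was 5.70, 5.50, 4.57 and 6.03 in the 4 HFD+WBM livers, against 6.18, 5.79, 6.48 and 7.00 in the 4 HFD livers. HFD+WBM replicate 4 lay above HFD replicate 2, and the other livers were apart. The log2 fold change was -0.91 (standard error 0.34), 1.88-fold lower, with p = 0.025 before and 0.40 after adjustment (limma) and an exact permutation p of 0.057. It did not pass without HFD+WBM replicate 3 (-0.62) or HFD replicate 4 (-0.70). A dimmer probe set of Top2a had an estimate of the opposite sign, 0.37 (standard error 0.29), and with the mean of both probe sets the change was -0.27 and did not pass.

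Tpx2 encodes a spindle assembly factor that activates Aurora A. It was 4.52, 4.72, 4.42 and 5.63 in the 4 HFD+WBM livers, against 5.62, 5.67, 6.30 and 5.13 in the 4 HFD livers. HFD+WBM replicate 4 lay within the HFD range and the other 3 HFD+WBM livers lay below it. The log2 fold change was -0.86 (standard error 0.32), 1.81-fold lower, with p = 0.022 before and 0.39 after adjustment (limma) and an exact permutation p of 0.086. It did not pass without HFD+WBM replicate 1 (-0.76), 2 (-0.83) or 3 (-0.73) or without HFD replicate 3 (-0.65).

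Mki67, which encodes the proliferation marker Ki-67, was 6.31, 5.96, 6.27 and 5.57 in the 4 HFD+WBM livers, against 5.96, 5.72, 5.88 and 6.65 in the 4 HFD livers. The diets overlapped over most of their range, and HFD replicate 4 was the highest. The log2 fold change was -0.03 (standard error 0.24), with a 95% interval of -0.58 to 0.52. The kinesin genes Kif11 and Kif20a had changes of -0.24 (standard error 0.38) and 0.46 (standard error 0.38). Of the centromere genes, Cenpa, the centromeric histone, had 0.01 (standard error 0.20) and Cenpe, a kinetochore motor, 0.03 (standard error 0.57), the widest error of the members. Nusap1, a microtubule-binding protein of the spindle, had -0.17 (standard error 0.25). Birc5 (survivin), a subunit of the chromosomal passenger complex, had 0.34 (standard error 0.43). For Birc5 and Kif20a the array of HFD replicate 3 was the lowest, with 3.95 for Birc5, against 5.73 to 6.19 in the other HFD livers and 5.70 to 5.88 in HFD+WBM livers.

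HFD replicate 4 stood above the other livers for many members. The mean of all 36 members lay between 6.54 and 6.63 in HFD+WBM livers, against 7.09 in this mouse and 6.70 to 6.74 in the other 3 HFD livers. HFD replicate 4 was the highest of the 8 livers for 13 of 36 members, and for 7 of the 11 in the S phase group. Its median deviation from the mean of each gene was 0.27 over the members and 0.03 over all genes. HFD+WBM replicate 3 was the lowest of the 8 livers for 8 of 36 members. How often these livers stood highest or lowest over all genes was not counted. Without HFD replicate 4 there were 4 lower members (Ccnd1, Rrm1, Rrm2 and Tpx2) and 1 higher (Bub1), where 4.98% of all genes were lower and 3.63% were higher. The median log2 fold change was then -0.06 over all members, -0.35 in the S phase group, 0.02 in the group of G2 cyclins and kinases and 0.09 in the group of chromosome and spindle genes. Without HFD+WBM replicate 3, the members that were lower were the 3 whose diets do not overlap, where 4.53% of all genes were lower. Over the 8 fits that left out a mouse, the median of the S phase group was -0.65 to -0.34 and that of the G1 group -0.24 to -0.02. In the G2 group it was -0.10 to 0.02 and in the chromosome and spindle group -0.18 to 0.09, so that these groups had medians on both sides of 0. Differences between the phases were not tested.

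**Figure D4:**
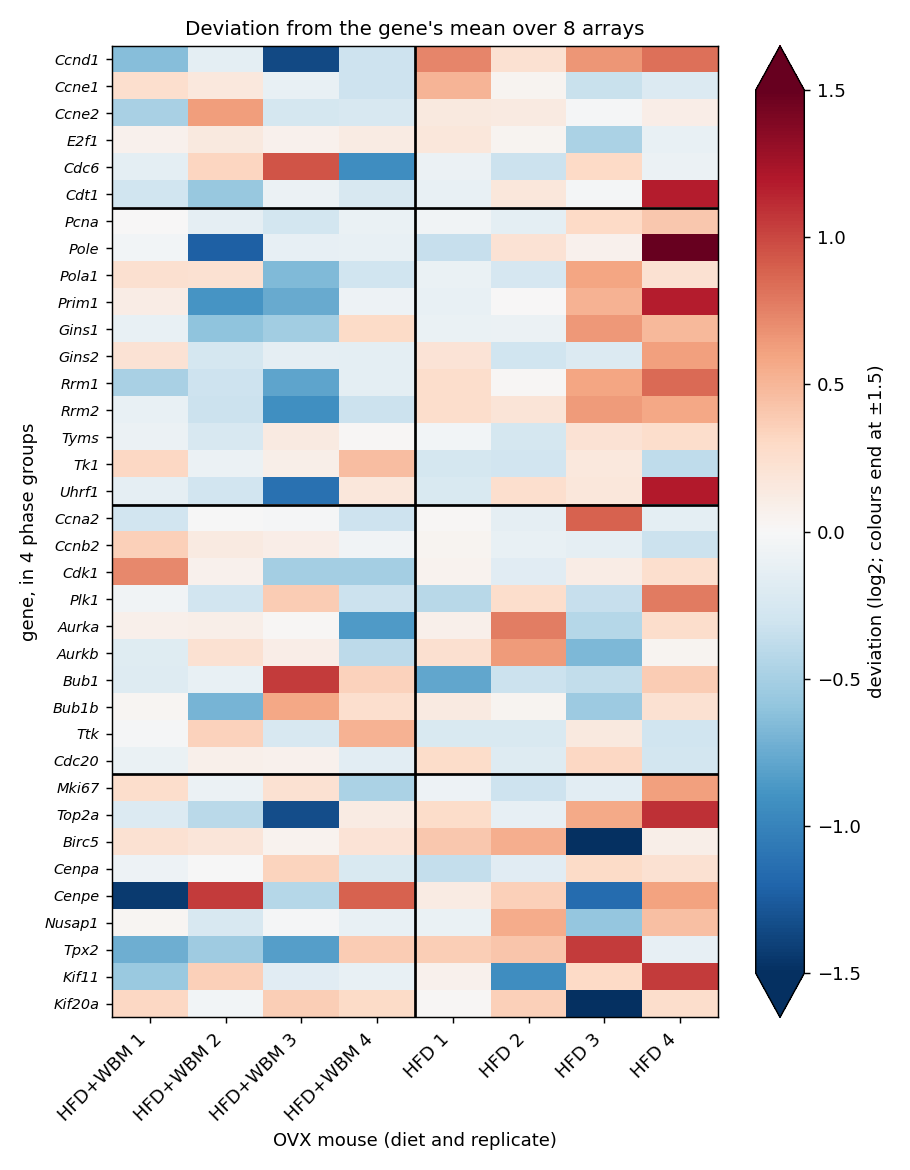
Deviation of each member in each liver from the mean of that member over the 8 arrays (log2, red above and blue below), with HFD+WBM livers left of HFD livers and lines between the 4 phase groups. HFD replicate 4 is the highest of the 8 livers for 13 of 36 members, 7 of them in the S phase group and 1 in the group of G2 cyclins and kinases.

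Further genes of the same machinery were read from lists. The MCM subunits form the helicase core that Cdc6 and Cdt1 load. Of Mcm2 to Mcm7, 5 of 6 were lower at p under 0.05 before adjustment (83.3%) and none was higher. Over all genes, 6.9% were lower and 4.85% were higher. The median log2 fold change of the 6 was -1.08, and Mcm7 did not pass. Mcm5 averaged 5.44 with HFD+WBM and 6.97 with HFD (log2 fold change -1.53), Mcm3 6.36 and 7.49 (-1.12), Mcm2 6.34 and 7.37 (-1.04) and Mcm4 6.65 and 7.66 (-1.02). In the mean of the 6, as in the S phase members, HFD replicate 4 was the highest, with 8.29 against 6.25 to 6.60 in HFD+WBM livers and 6.80 to 7.66 in the other HFD livers. Of 38 other genes of replication and nucleotide supply, 7 were lower (18.4%), none was higher and 31 did not pass, with a median of -0.03. The smallest adjusted p (limma) was 0.36 among the MCM subunits and 0.37 among these 38 genes. The 4 with the smallest p were Orc6, a subunit of the origin recognition complex (-0.58), Rpa2, a subunit of the single-strand binding protein (-0.73), Rfc4, a subunit of the clamp loader (-0.62), and Tipin, a fork protection protein (-0.49).

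Of 56 other genes of mitosis, 5 were lower (8.93%) and 2 were higher (3.57%), with a median of -0.04, and 49 did not pass. These shares were near those over all genes, 6.9% lower and 4.85% higher. Named by their p, Cenpm, a centromere protein, had a log2 fold change of -1.06, Ccnf (cyclin F) one of -0.93, Smc2, a condensin subunit, one of -0.90 and Ncapd2, also of condensin, one of -0.79. Those that were higher were Melk (0.43), a kinase, and Ube2c (0.32), the ubiquitin-conjugating enzyme of the anaphase-promoting complex. Not 1 of 17 other G1 cyclins, CDKs and E2F factors passed, among them Ccnd2 with 0.04 (standard error 0.18) and Ccnd3 with 0.42 (standard error 0.20). The cyclin D genes therefore had estimates of different sign, and the difference between them was not tested.

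Genes that hold back the cycle had estimates in both directions. Of 15 CDK inhibitors, pocket proteins and antiproliferative genes, 3 were higher (20%), 2 were lower (13.3%) and 10 did not pass, with a median of 0.14. Over all genes, 4.85% were higher and 6.9% were lower. The smallest adjusted p (limma) of the 15 was 0.35. Cdkn2b, which encodes p15, an inhibitor of the kinases that partner cyclin D, was 7.50, 7.78, 7.57 and 7.62 in HFD+WBM livers, against 6.90, 7.10, 6.75 and 6.88 in HFD livers. Every HFD+WBM liver lay above every HFD liver. The log2 fold change was 0.71 (standard error 0.14), with p = 6.7e-04 before and 0.35 after adjustment (limma) and an exact permutation p of 0.029. Rbl2, the pocket protein p130 of resting cells, was 1.29-fold higher without overlap, and Btg1, an antiproliferative gene, was 1.34-fold higher with overlap. Rbl1, the pocket protein p107, was 2.18-fold lower with overlap, and Cdkn1b, the inhibitor p27, was 1.27-fold lower without overlap.

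Markers of other liver cells were read in the same way. At p under 0.05 before adjustment, 6.9% of all genes were lower and 4.85% were higher. Of 12 markers of Kupffer cells and macrophages, 10 were lower at this threshold (83.3%) and none was higher. Their mean was 8.65 to 9.11 in HFD+WBM livers and 9.10 to 9.74 in HFD livers. Of 8 stellate cell markers 3 were lower (37.5%), with a mean of 8.22 to 8.82 in HFD+WBM livers and 8.61 to 9.22 in HFD livers. Of 8 markers of sinusoidal endothelium 2 were lower (25%), with 8.88 to 9.38 in HFD+WBM livers and 9.16 to 9.70 in HFD livers. None of 10 hepatocyte, 5 cholangiocyte or 8 lymphocyte markers passed, and of 4 erythroid markers Klf1 was higher (0.49). As over all genes, no marker passed after adjustment. The smallest adjusted p (limma) was 0.36 for macrophage, 0.37 for stellate and 0.37 for endothelial markers. HFD replicate 4 was the liver with the highest mean over the 36 members. Its mean was 9.45 for the macrophage markers, below HFD replicates 1 (9.74) and 3 (9.73), and 9.22 for the stellate markers, the highest of the 8. The part of these cells in the cell cycle values was not tested.

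**Figure D5:**
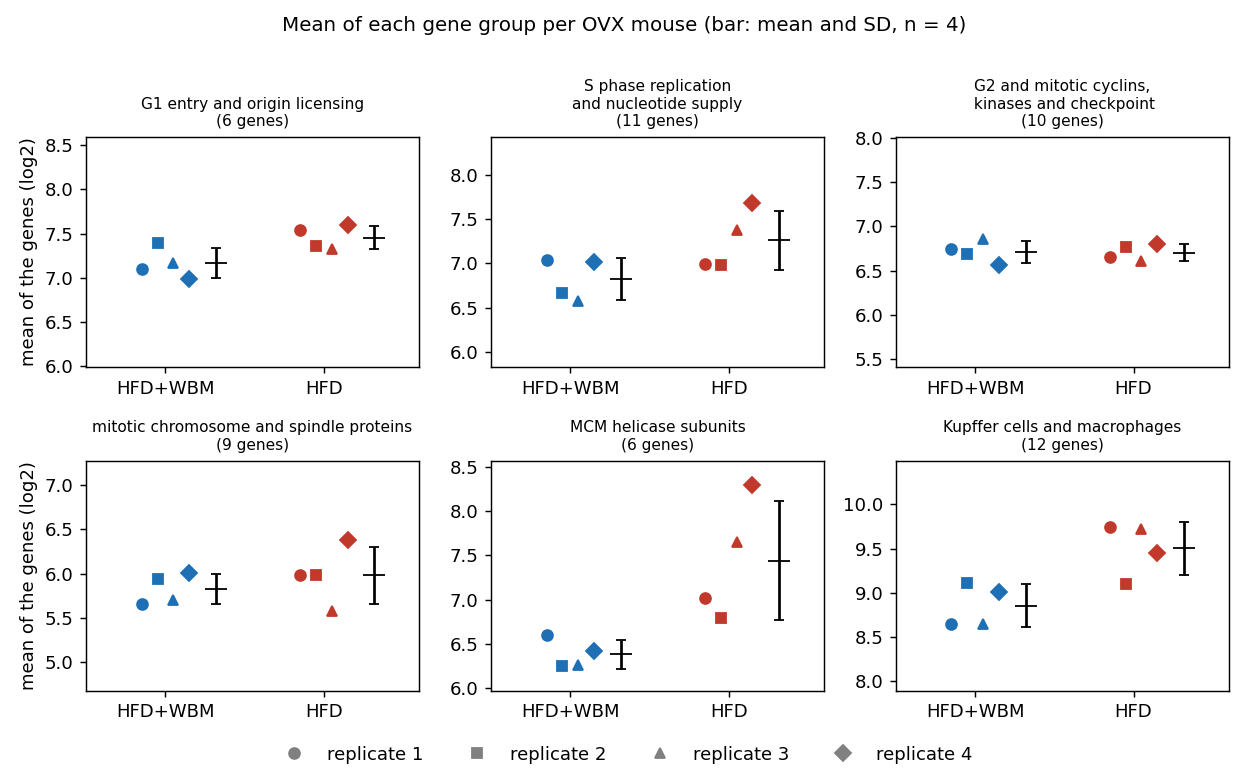
Mean log2 value of the genes of each group per OVX mouse, HFD+WBM in blue and HFD in red, for the 4 phase groups, the MCM subunits and the markers of Kupffer cells and macrophages, and beside the points the mean with the SD of 4 mice. All panels span the same number of log2 units. HFD replicate 4 (diamond) is the highest liver in the panels of G1 genes (7.59), of S phase genes (7.68), of chromosome and spindle genes (6.38) and of MCM subunits (8.29).

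The 27 members with a promoter window were also read by motif. The 11 with a CHR had a median log2 fold change of -0.06 and 1 of them was lower (Top2a). The 16 without it had a median of -0.13 and 3 were lower (Rrm1, Rrm2 and Prim1). Over all genes, 6.9% were lower at p under 0.05 before adjustment. Ccnd1 and Tpx2, which were also lower, had no window and are not in this split. The difference between genes with and without a CHR was not tested.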

How the data were processed

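Liver RNA of 4 OVX HFD+WBM and 4 OVX HFD mice was measured, 1 array a mouse, and diets and replicate numbers were taken from the sample labels. The values as deposited are log2 signals per transcript-level probe set, which the authors made with IterPLIER (Affymetrix Power Tools 1.8.6) after background correction and normalization. Neither an offset added ahead of the log nor the genome build is stated (not given in the sources used here).

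Of 28944 probe sets, 21789 name a single gene, and 19938 genes remained after taking the probe set with the highest mean. All were fitted by lmFit and eBayes (limma 3.58.1 under R 4.3.3), the model holding diet alone, and p was adjusted by Benjamini-Hochberg over all genes. The fit was tested on data made with known changes, all larger than the change of any member. Changes of the size seen in the members were not covered by that test. The number of arrays limits the precision. The members, the gene lists and the tests were chosen with earlier results of these data known. All members are described. Values of each mouse are given for members with p under 0.05 or without overlap and for Mki67, Top2a, Ccnd1, Pcna and Cdk1, and up to 4 genes per direction of each list are named by the smallest p. Tk1 and other probe sets, Ccnd2, Ccnd3, Mcm7 and Klf1 were added after their values were seen. Exact permutation tests used all 70 divisions of the 8 mice. Promoter windows and chromosome positions are those of RefSeq (GRCm38.p6). Other settings were median centring, quantile normalization, adding 16 or 64 to the linear signal, keeping the 50% brightest genes, the mean of all probe sets, all rows of the table, a variance trend, array weights, an ordinary t-test (equal variances), blocking on replicate number and leaving out each mouse.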

Additional observations from a re-analysis of the deposited data

Results flagged for a closer look

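In 4 of 80 groups of 4 values (36 members and 4 phase means in each diet), a single liver stood apart from the other 3 by more than Dixon's critical value, and chance flags about 1 in 20 groups. Pole was 5.32 in HFD+WBM replicate 2, against 6.42 to 6.51 in the other HFD+WBM livers. Aurka was 5.65 in HFD+WBM replicate 4, against 6.52 to 6.59 in the others of that diet. HFD replicate 3 had 6.76 for Ccna2, where its diet otherwise spanned 5.73 to 5.90. The same liver had 6.57 for Ttk, where its diet otherwise spanned 6.12 to 6.19.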

How the results depend on the processing

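The count of 6 lower members became 2 with the 50% brightest genes, where 8 members were tested and 12% of all genes were lower. It became 3 of 36 (8.33%) with an ordinary t-test with equal variances, near the 7.66% of all genes, and Prim1, Top2a and Tpx2 did not pass there. It was 3 to 9 when each mouse was left out, with 4.53% to 6.85% of all genes lower. The count of higher members was 0 with the settings used above. It became 1 with quantile normalization, an offset of 64, the mean of all probe sets and array weights. It was also 1 with the 50% brightest genes, where 8 members were tested, and 2 with a variance trend. Tk1 was called in each, with Ccnb2 as well under the trend. Over all genes, 4.8% to 7.27% were higher in these settings. When each mouse was left out, the count was 0 to 1, with 3.43% to 5.3% of all genes higher. Apart from the smaller number of members among the brightest genes, the causes were not tested. The median log2 fold change of the members was below 0 in all 19 other settings. At an adjusted p under 0.05, Ccnd1 and Rrm1 were lower with a variance trend, where 139 of 19938 genes passed in either direction. Both were also lower with an offset of 64, where 80 of 19938 genes passed. Ccnd1 was lower with the 50% brightest genes, where 19 of 9969 genes passed. The adjusted p of Ccnd1 over the other settings ranged from 0.0020 to 0.57 (both limma). Leaving out each mouse gave log2 fold changes of -0.38 to 0.033 for Cdk1 and -0.14 to 0.17 for Mki67, with the sign changed without HFD+WBM replicate 3 or 4 for Cdk1 (0.033 for each) and without HFD+WBM replicate 4 (0.12) or HFD replicate 4 (0.17) for Mki67. Like the main fit, the ordinary t-test called 0 genes after adjustment. Over all genes, 1375 were lower, against 904 without HFD+WBM replicate 3. Tpx2 did not pass with array weights or with the replicate block. The labels do not say whether the replicate numbers pair the mice, and the paper describes pair feeding of the control group to the WBM group. Deviations of mice with the same number had correlations of -0.12 to -0.02, which have no reference value and cannot decide this. With the number as a replicate block 6 members were lower, 5 of them among the 6 named above, with Uhrf1 in place of Tpx2. Over all genes, 5.06% were lower with this block. The limit that dim signal sets was not tested.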
